A study of Capra hircus with 10 samples.

Results

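Goat mammary gland cells that had received either of a pair of control viruses, labelled Lv5NC and Lv3NC, were compared with cells labelled Blank. The comparison took 6 of the 10 RNA sequencing libraries of the series: Lv5NC-1, Lv5NC-2, Lv3NC-1 and Lv3NC-2 as 1 group of 4, and Blank-1 and Blank-2 as a group of 2. All the cells came from Lanshan dairy goats and were grown in a 3D culture. The Blank cells carry the genotype label control, the Lv5NC cells the label 5NC and the Lv3NC cells the label 3NC. The other 4 libraries, 2 of OV55666 (overexpression of lncRNA55666) and 2 of KD553 (its knockdown), entered the fit only for the estimate of the spread. The series text says that a virus carried the overexpression and knockdown constructs. It does not spell out Lv, 5NC or 3NC, and the virus dose, the time after delivery, the content of the control viruses and the number of animals are unknown from the labels. Lv5NC and Lv3NC are read here as the control viruses, so the comparison asks what receiving a virus without lncRNA55666 goes with. Whether the 2 libraries of a group are separate cultures or goats is not labelled, and the p-values then reflect only how these libraries vary, possibly for technical reasons.

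Virus vectors enter a cell, release their nucleic acid and, for retroviral vectors, copy it into DNA that joins the host genome. Cells can sense such nucleic acid through receptors in endosomes and in the cytosol, which switch on interferon genes and the NF-kB cytokines, and restriction factors block steps of the viral cycle. Stromal cells in culture are also known to answer many kinds of stimulus with immediate early genes, growth factors, chemokines and prostaglandins.

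Values are FPKM (fragments per kilobase of transcript, scaled to the mapped fragments of a library), as the authors deposited them, and differences are in log2(FPKM + 1), control viruses minus Blank, with the standard error (SE) of the fit. The added 1 understates the change of genes with low values. The table holds 17197 genes, and the 11340 with at least 1 FPKM in at least 2 of the 10 libraries were tested with limma, a linear model with moderated variances. A gene was called at a Benjamini-Hochberg adjusted p under 0.05 over those 11340 genes. Read depth is unknown here, so no counting error could be attached. FPKM summed to between 440570 and 460420 per library, and 10922 to 11163 genes per library had at least 1 FPKM. Blank-2 had the lowest sum and stood apart from the rest. Its value was above or below all other 9 libraries in 4716 genes (41.6%), against 2464 (21.7%) for Blank-1 and 1554 to 2092 (13.7% to 18.4%) for the 4 control virus libraries. Among the OV55666 and KD553 libraries, which enter the estimate of the spread, the number ran from 1316 (11.6%) to 3420 (30.2%), highest in a KD553 library.

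The cells carried stromal rather than epithelial RNA in both groups. The 12 fibroblast markers summed to 22380 and 21056 FPKM in Blank and to between 20644 and 22941 with the control viruses. By gene, 9 of the 12 lay below 0 (median −0.21, and −0.23 against Blank-1 alone), and 0 were called. In 7 of them all 4 control virus libraries lay below both Blank libraries, against 15.3% of all genes tested. At an unadjusted p under 0.05 there were 7 of the 12, against 18.3% of all genes tested. Among the 18 markers of luminal epithelium, 15 stayed under 1 FPKM in every library, with the keratin gene KRT8 and the adhesion gene EPCAM at no more than 0.02. The estrogen receptor gene ESR1, described with the hormone genes, was the 1 called marker of that list. The data therefore do not show luminal epithelial cells behind the label mammary gland cells. Of 8 basal or myoepithelial markers 5 were under 1 FPKM everywhere, and the sum, carried by the contractile genes ACTA2, TAGLN and MYLK, was 1857 and 3042 in Blank and 1677 to 1839 with the control viruses. The leukocyte sum, nearly all CD14, was 28.3 and 18.7 in Blank and 23.2 to 39.3 with the control viruses, while PTPRC, the defining leukocyte marker, reached no more than 0.01. In bulk RNA, fewer cells of a type and less RNA per cell cannot be told apart.

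With both control viruses pooled, 172 of 11340 genes passed the test against Blank (1.52%), 64 of them higher (0.564%) and 108 lower (0.952%). These are the shares against which the counts of called members in the gene lists are to be read. The rises were 37.2% of the calls, and 47.4% after quantile normalization or 49% after median centring. Rises lay between 0.32 and 1.71 on the log2 scale, with a median of 0.70, and falls between −2.78 and −0.32, with a median of −0.61. The prostaglandin synthases PTGS2 and PTGES, the morphogen BMP2, the EGF receptor ligand EREG and the feedback inhibitor SPRY2 were among the largest rises. The matrix protein SPON1, the vascular peptide APLN and the potassium channel genes ABCC9 and KCNJ8 were among the largest falls. In all 172 genes the 4 control virus libraries lay on 1 side of both Blank libraries, as they did, above or below, in 1227 (10.8%) and 1736 (15.3%) of all genes tested. At an unadjusted p under 0.05 there were 2078 genes (18.3%), the share against which the counts at that level in the gene lists are to be read. Genes that fell were low in these cells: their median level over the 10 libraries was 2.81 FPKM, against 14.7 for genes that rose and 7.88 for all genes tested.

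The number of calls depended on single libraries of both groups, and most of all on the second Blank library. Without Blank-2 it was 2, namely APLN lower and SMDT1, a subunit of the mitochondrial calcium uniporter, higher. SMDT1 is listed at 0 in Blank-1, at 5.89 FPKM in Blank-2 and at 8.50 to 12.7 with the control viruses, and it did not pass with both Blank libraries (adjusted p = 0.128). Without Blank-1 the number was 699, without Lv3NC-1 it was 52, without Lv3NC-2 14 and without Lv5NC-1 15. Blank-2 lay farther than Blank-1 from the mean of the control viruses in 63 of the 64 genes that rose and in 73 of the 108 that fell, and in 61% of all genes tested. Against Blank-1 alone, where the lack of overlap fixes the sign, rises had a median of 0.50 (0.27 to 1.15) and falls of −0.56 (−2.76 to −0.29). With each library but Blank-2 left out in turn, 14 genes stayed called, among them the falls CDO1, PKDCC, SDC2, ROR2, RRAD, LRRC17, TNFAIP8, CPQ, PODN and GPM6B and the rises ANKRD28, EREG and FAM65B. Of these, PKDCC, SDC2, ROR2, TNFAIP8, CPQ, PODN and FAM65B were singled out after their values were seen, as was SMDT1. GPM6B reached 1 FPKM only in Blank, so it passed the filter through that group alone.

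**Figure D1:**
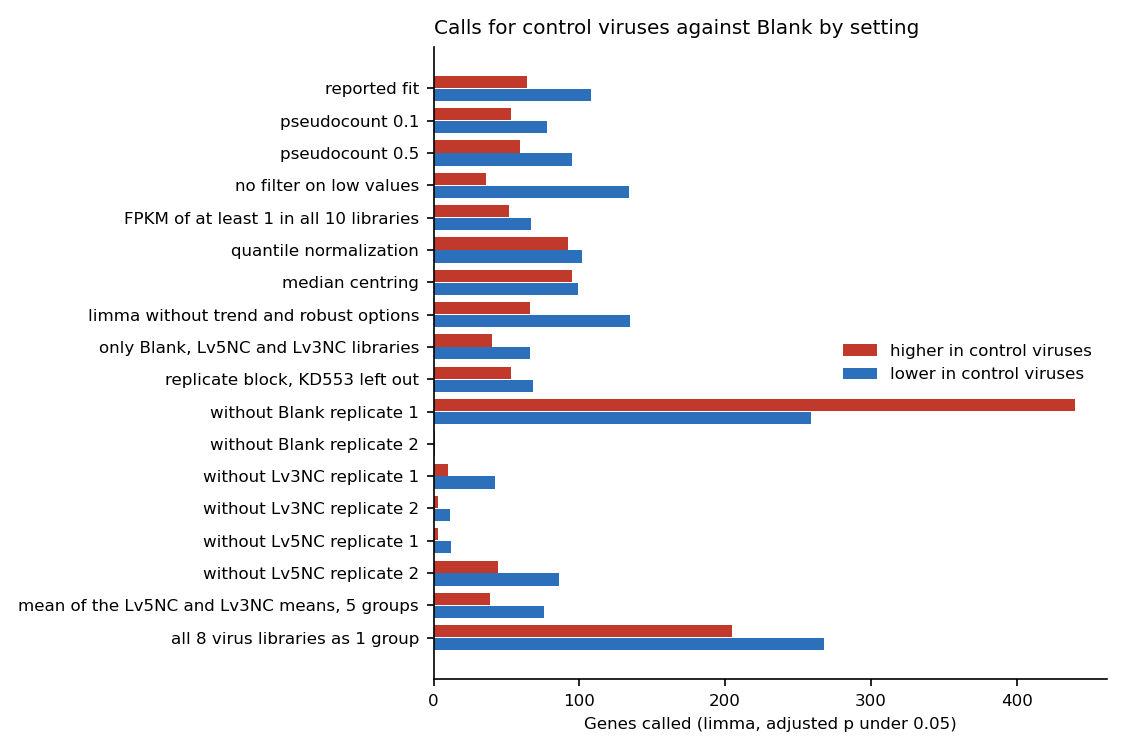
Number of genes called (horizontal axis, linear from 0) higher (red) and lower (blue) with the control viruses than in Blank, for the reported fit and 17 other settings, 1 pair of bars each. The reported fit gives 64 and 108, the fit without Blank replicate 2 gives 1 and 1, and the fit without Blank replicate 1 gives 440 and 259.

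**Figure D2:**
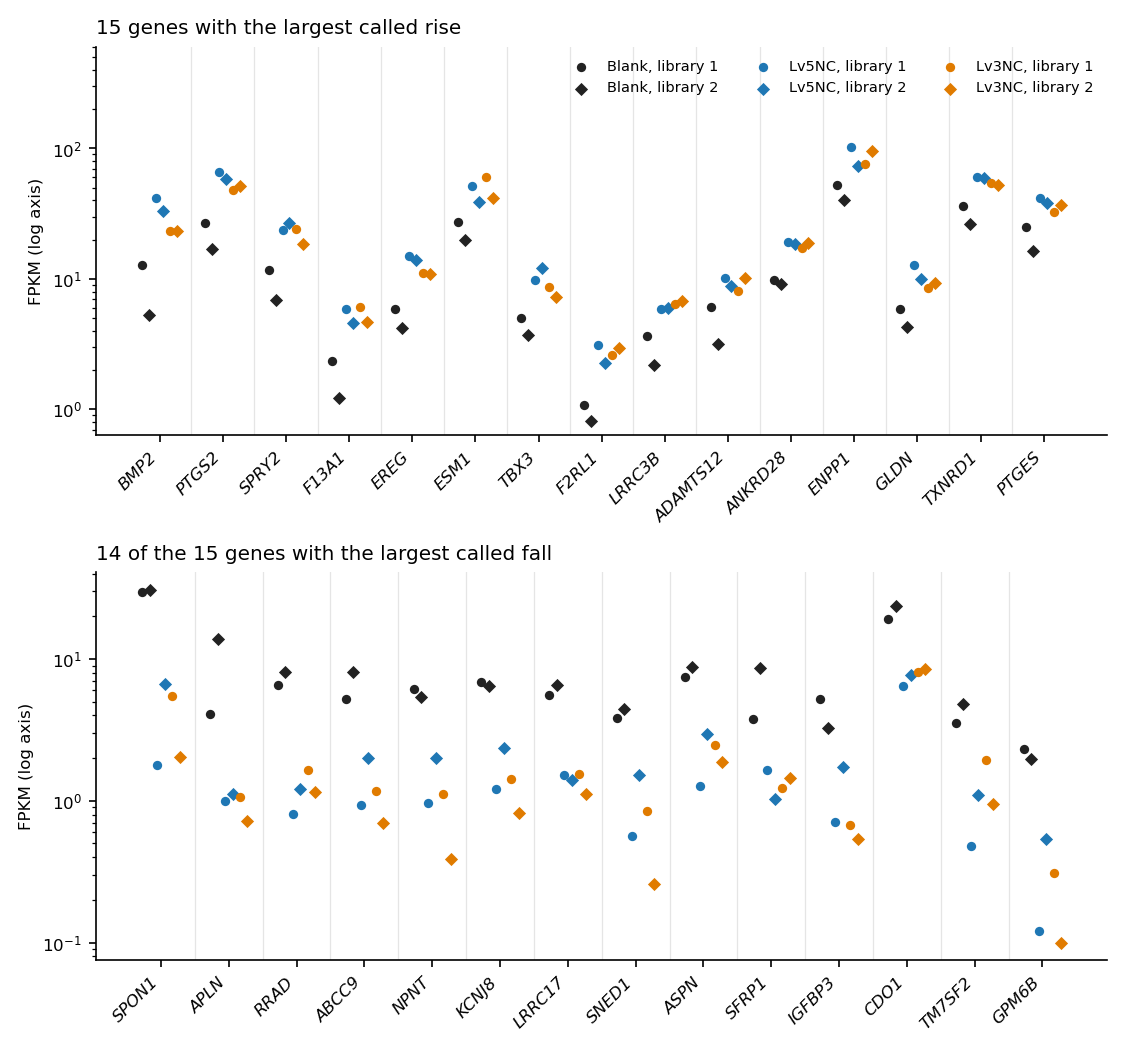
FPKM (log axis) of the 15 genes with the largest called rise (top) and of 14 of the 15 with the largest called fall (bottom), 1 point per library; circles are the first and diamonds the second library of Blank (black), Lv5NC (blue) and Lv3NC (orange). In each of the 29 genes the 4 coloured points lie on 1 side of both black points, and in each of the 15 rises Blank-2 is the lower black point.

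Prostaglandin genes were among the clearest rises. Prostaglandins are lipid messengers made from arachidonic acid by cyclooxygenases and terminal synthases, and read by receptors of the PTGER and PTGFR kind. PTGS2, the inducible cyclooxygenase, was at 26.8 and 16.9 FPKM in Blank, 66.4 and 58.2 in Lv5NC and 47.9 and 51.5 in Lv3NC (log2 difference ± SE 1.34 ± 0.19, adjusted p = 0.0239, n = 4 against 2, and likewise in all parentheses that follow). All 4 control virus libraries were above both Blank libraries, with Lv5NC the higher of the viruses. PTGES, the inducible synthase that makes prostaglandin E2, was at 25.2 and 16.4 FPKM in Blank, 41.4 and 38.3 in Lv5NC and 32.8 and 37.0 in Lv3NC (0.84 ± 0.15, adjusted p = 0.0322), again with no overlap and with Blank-2 lowest. Of 11 tested members of the list 2 were called, both higher, where 0.564% of all genes were called higher. The median difference was 0.28, against 0.0027 over all genes tested. The receptor gene PTGER4 was at 7.35 and 5.62 FPKM in Blank, 11.5 and 12.3 in Lv5NC and 13.2 and 8.63 in Lv3NC and did not pass (0.72 ± 0.16, adjusted p = 0.0577). PTGFR, the receptor for prostaglandin F2alpha, was the 1 member below 0, at 8.98 and 9.31 FPKM in Blank, 2.99 and 5.38 in Lv5NC and 4.66 and 4.22 in Lv3NC (−0.95 ± 0.20, adjusted p = 0.057), with the groups apart but no call. Against Blank-1 alone the list median was 0.20.

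Chemokines and other targets of NF-kB, the transcription factor of inflammatory signalling, lay higher without a call. Of 25 tested members 20 were above 0 (median 0.20, and 0.11 against Blank-1 alone), and 0 passed. In 12 members all 4 control virus libraries lay above both Blank libraries, against 10.8% of all genes. At an unadjusted p under 0.05 there were 12, against 18.3% of all genes. CXCL8, which draws neutrophils, was at 0.84 and 0.10 FPKM in Blank, 5.02 and 3.42 in Lv5NC and 2.03 and 2.89 in Lv3NC (1.56 ± 0.36, adjusted p = 0.0744). Its Blank-2 value was close to the floor and the 4 control virus values were all above Blank-1. IL1A, an alarm cytokine, was at 0.48 and 0.25 FPKM in Blank and between 0.84 and 0.99 in the control viruses (0.50 ± 0.11, adjusted p = 0.0571), and TNIP1, a brake on the pathway, at 52.5 and 41.1 FPKM in Blank and between 59.5 and 67.3 in the control viruses (0.45 ± 0.10, adjusted p = 0.0508). A gene outside the list and without a symbol, annotated in the deposited table as C-X-C motif chemokine 1/2/3, rose: LOC102182395 was at 10.4 and 5.33 FPKM in Blank, 23.3 and 19.4 in Lv5NC and 22.01 and 16.2 in Lv3NC (1.31 ± 0.23, adjusted p = 0.0355). It belongs to a family of near-identical copies, so its reads may be shared with them, and it was singled out after its values were seen.

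In the EGF receptor pathway, RNA of a ligand and of inhibitors was higher, and signalling itself was not measured. EREG, or epiregulin, a ligand of that receptor, was at 5.85 and 4.19 FPKM in Blank, 14.8 and 14.0 in Lv5NC and 11.1 and 11.0 in Lv3NC (1.19 ± 0.14, adjusted p = 0.00808). The Lv5NC libraries were highest, Lv3NC between and both Blank libraries lowest. There was little spread inside Lv5NC and Lv3NC, while Blank-2 lay 0.40 below Blank-1 on the log2 scale. SPRY2, which the pathway induces and which damps it, was at 11.8 and 6.93 FPKM in Blank, 23.5 and 26.7 in Lv5NC and 24.2 and 18.4 in Lv3NC (1.25 ± 0.21, adjusted p = 0.0333). SPRED1, an inhibitor of the same pathway, was at 7.18 and 5.98 FPKM in Blank, 8.62 and 8.98 in Lv5NC and 8.96 and 8.89 in Lv3NC (0.38 ± 0.07, adjusted p = 0.0355). Both were higher in all 4 control virus libraries. Its relative SPRED2 was at 6.92 and 7.10 FPKM in Blank and between 8.0 and 9.0 in the control viruses and did not pass (0.26 ± 0.07, adjusted p = 0.097). These 3 rises were the only calls among 10 tested members, where 0.564% of all genes were called higher. Of the 10 members 8 lay above 0, and the list median was 0.26, or 0.21 against Blank-1 alone.

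Immediate early genes, transcribed within minutes of a stimulus, held 3 rises among 31 tested members, where 0.564% of all genes were called higher. KLF4, a zinc finger factor, was at 45.3 and 34.8 FPKM in Blank, 74.0 and 81.6 in Lv5NC and 67.8 and 61.6 in Lv3NC (0.82 ± 0.14, adjusted p = 0.0315). FOSB, a subunit of the AP-1 factor, was at 183 and 155 FPKM in Blank, 303 and 317 in Lv5NC and 276 and 247 in Lv3NC (0.75 ± 0.13, adjusted p = 0.0315). ATF3, a stress-induced factor of the ATF family, was at 38.7 and 29.1 FPKM in Blank, 63.8 and 66.8 in Lv5NC and 58.4 and 52.0 in Lv3NC (0.82 ± 0.15, adjusted p = 0.0333). All 3 had both Lv5NC libraries above both Lv3NC libraries, and the latter above both Blank libraries. FOSL1, another AP-1 subunit, was at 19.9 and 15.2 FPKM in Blank and between 29.3 and 39.4 in the control viruses and did not pass (0.83 ± 0.20, adjusted p = 0.0814). Over the list 22 members were above 0 and 9 below, with a median of 0.21 and of 0.18 against Blank-1 alone.

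Genes of the TGF-beta, BMP and Wnt pathways, which pattern tissue and steer stromal cells, changed in both directions, with 3 higher and 2 lower of 35 tested. The shares over all genes were 0.564% higher and 0.952% lower. BMP2, a secreted bone morphogenetic protein, had the largest called rise, at 12.7 and 5.31 FPKM in Blank, 41.6 and 33.1 in Lv5NC and 23.2 and 23.1 in Lv3NC (1.71 ± 0.32, adjusted p = 0.0471). Its levels with the control viruses were 3.36 times those of Blank on average, and the difference was 1.15 against Blank-1 alone. TBX3, a T-box factor that acts in mammary development, was at 5.03 and 3.73 FPKM in Blank, 9.88 and 12.0 in Lv5NC and 8.66 and 7.30 in Lv3NC (0.95 ± 0.17, adjusted p = 0.0358). TGFBR2, the type II receptor for TGF-beta, was at 18.9 and 18.1 FPKM in Blank, 29.1 and 24.3 in Lv5NC and 25.3 and 27.0 in Lv3NC (0.49 ± 0.10, adjusted p = 0.0459). Each of these was above Blank in all 4 libraries, and BMP2 and TBX3 were higher in Lv5NC than in Lv3NC without a test that passed. On the falling side, SFRP1, a secreted Wnt antagonist, was at 3.80 and 8.62 FPKM in Blank, 1.66 and 1.03 in Lv5NC and 1.24 and 1.45 in Lv3NC (−1.54 ± 0.25, adjusted p = 0.0322), with Blank-2 far above Blank-1. The ligand gene TGFB3 was at 8.30 and 8.85 FPKM in Blank, 6.81 and 6.36 in Lv5NC and 6.36 and 5.80 in Lv3NC (−0.39 ± 0.07, adjusted p = 0.0361), with less than 1 FPKM between the Blank libraries. The list as a whole had a median of 0.06, with 21 members above and 14 below 0.

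Antioxidant genes that answer to the factor NRF2 lay mostly higher. TXNRD1, thioredoxin reductase, was at 36.4 and 26.5 FPKM in Blank, 60.8 and 59.6 in Lv5NC and 54.3 and 52.3 in Lv3NC (0.85 ± 0.13, adjusted p = 0.0221). PRDX1, a peroxiredoxin that removes hydrogen peroxide, was at 749.6 and 611 FPKM in Blank, 1044 and 977 in Lv5NC and 1042 and 1118 in Lv3NC (0.62 ± 0.12, adjusted p = 0.0354). GPX1, a glutathione peroxidase, was at 54.1 and 45.8 FPKM in Blank, 73.3 and 72.6 in Lv5NC and 69.5 and 70.5 in Lv3NC (0.51 ± 0.09, adjusted p = 0.0314). The control virus libraries stood close together in all 3 genes and above both Blank libraries. NQO1, a classical NRF2 target, was at 6.51 and 5.40 FPKM in Blank and between 8.45 and 9.34 in the control viruses and did not pass (0.50 ± 0.12, adjusted p = 0.0642). Of 23 tested members 3 were called, all higher, where 0.564% of all genes were called higher. Of the 23 members 19 lay above 0, and the median was 0.20, or 0.14 against Blank-1 alone.

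**Figure D3:**
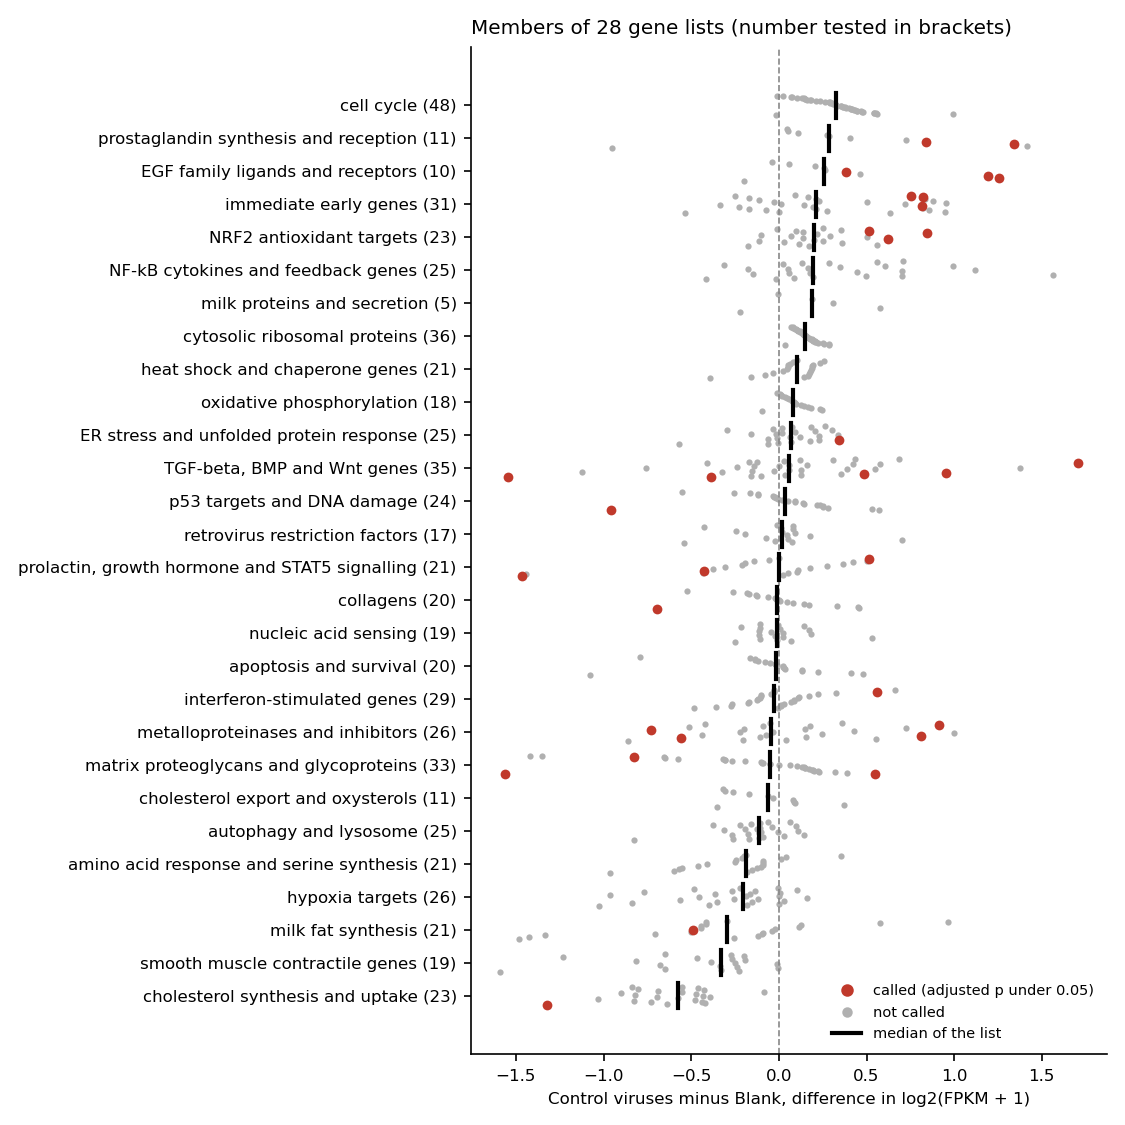
Difference between control viruses and Blank in log2(FPKM + 1) (horizontal axis) for the tested members of 28 gene lists, 1 point per gene, red where the gene was called; black bars are list medians. The cholesterol synthesis list has the lowest median, −0.57, and the cell cycle list the highest, 0.33, while the called genes are spread over 14 lists.

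The extracellular matrix held the gene with the largest fall. SPON1, or F-spondin, a secreted adhesion protein, was at 29.6 and 30.8 FPKM in Blank, 1.78 and 6.71 in Lv5NC and 5.52 and 2.03 in Lv3NC (−2.78 ± 0.47, adjusted p = 0.0364). The Blank libraries were near each other and on average at 7.53 times the mean of the control viruses, among which Lv5NC-2 and Lv3NC-1 were higher than Lv5NC-1 and Lv3NC-2. ASPN, or asporin, a small leucine-rich proteoglycan, was at 7.46 and 8.75 FPKM in Blank, 1.27 and 2.97 in Lv5NC and 2.46 and 1.88 in Lv3NC (−1.56 ± 0.27, adjusted p = 0.0358). NPNT, or nephronectin, an integrin ligand, was at 6.15 and 5.40 FPKM in Blank, 0.96 and 2.01 in Lv5NC and 1.11 and 0.39 in Lv3NC (−1.73 ± 0.31, adjusted p = 0.038). In both genes Lv5NC-2 and Lv3NC-1 were nearest to Blank, and no control virus library reached it. LRRC17, a secreted leucine-rich protein, was at 5.61 and 6.59 FPKM in Blank, 1.51 and 1.40 in Lv5NC and 1.55 and 1.12 in Lv3NC (−1.57 ± 0.17, adjusted p = 0.00525), a fall with the groups far apart. Each of its control virus values was under 2 FPKM. SNED1, a matrix protein of basement membranes and stroma, was at 3.86 and 4.43 FPKM in Blank and between 0.26 and 1.51 in the control viruses (−1.56 ± 0.26, adjusted p = 0.0322). SPARCL1, a matricellular relative of SPARC, was at 1.55 and 1.79 FPKM in Blank and between 0.47 and 0.56 in the control viruses (−0.82 ± 0.11, adjusted p = 0.0136). COL12A1, a collagen that decorates fibrils, was at 118 and 181 FPKM in Blank, 89.4 and 87.6 in Lv5NC and 89.6 and 93.4 in Lv3NC (−0.69 ± 0.13, adjusted p = 0.0361), with Blank-2 far above Blank-1 and the control virus libraries close together.

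Other matrix genes rose. LTBP2, which binds latent TGF-beta and elastic fibres, was at 43.7 and 40.2 FPKM in Blank, 62.2 and 56.4 in Lv5NC and 64.2 and 64.7 in Lv3NC (0.55 ± 0.09, adjusted p = 0.0266). ESM1, a secreted proteoglycan known from endothelium, was at 27.5 and 19.7 FPKM in Blank, 51.8 and 38.6 in Lv5NC and 60.6 and 41.8 in Lv3NC (0.99 ± 0.19, adjusted p = 0.0448). F13A1, the subunit of factor XIII that crosslinks fibrin and matrix, was at 2.33 and 1.22 FPKM in Blank, 5.87 and 4.56 in Lv5NC and 6.12 and 4.66 in Lv3NC (1.20 ± 0.20, adjusted p = 0.0322). All 4 control virus libraries were above Blank, with Lv3NC-1 highest in ESM1 and F13A1 and Lv3NC-2 in LTBP2. ERG, an endothelial transcription factor, rose as well, at 21.0 and 19.1 FPKM in Blank and between 24.3 and 28.9 in the control viruses (0.40 ± 0.08, adjusted p = 0.0448), while the other 9 endothelial markers in the table were under 1 FPKM in every library. ESM1 and F13A1 had the same direction as ERG, while APLN, a peptide of the vasculature, went the other way (−2.14 ± 0.34). The part of endothelial cells was not tested. The abundant fibrillar collagen gene COL3A1 was at 3125 and 3158 FPKM in Blank and between 2499 and 2799 in the control viruses and did not pass (−0.26 ± 0.10, adjusted p = 0.22). In the list of matrix proteoglycans and glycoproteins 1 rose and 2 fell of 33 tested (median −0.05), and among collagens 1 fell of 20 (median −0.01). Among all genes 0.564% rose and 0.952% fell. OGN, or osteoglycin, was lower in all 4 control virus libraries without a call, at 31.3 and 41.1 FPKM in Blank, 8.65 and 18.3 in Lv5NC and 13.5 and 15.3 in Lv3NC (−1.35 ± 0.28, adjusted p = 0.057).

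Proteases and their inhibitors also split, with 2 rises and 2 falls among 26 tested members and a median of −0.04. Rises were 0.564% and falls 0.952% of all genes. TIMP1, the tissue inhibitor of metalloproteinases, was at 650.1 and 453 FPKM in Blank, 1037 and 808 in Lv5NC and 869.7 and 1122 in Lv3NC (0.81 ± 0.17, adjusted p = 0.0448). ADAMTS12, a secreted matrix protease, was at 6.12 and 3.17 FPKM in Blank, 10.2 and 8.83 in Lv5NC and 8.06 and 10.1 in Lv3NC (0.91 ± 0.18, adjusted p = 0.0471). Both were above Blank in all 4 libraries, and both had Blank-2 well below Blank-1. ADAM19, a membrane protease, was at 44.7 and 52.4 FPKM in Blank, 31.1 and 32.4 in Lv5NC and 36.1 and 30.8 in Lv3NC (−0.56 ± 0.09, adjusted p = 0.0247), and MMP23B, a metalloproteinase, at 2.57 and 3.92 FPKM in Blank and between 1.24 and 1.78 in the control viruses (−0.73 ± 0.14, adjusted p = 0.0355). F2RL1, the receptor that trypsin-like proteases cleave and activate, was at 1.08 and 0.81 FPKM in Blank, 3.12 and 2.28 in Lv5NC and 2.63 and 2.96 in Lv3NC (0.94 ± 0.17, adjusted p = 0.0322), near 1 FPKM in Blank and above 2 in all 4 control virus libraries.

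Other large rises concerned genes on none of the lists. ANKRD28, a subunit of a protein phosphatase complex, was at 9.79 and 9.10 FPKM in Blank, 19.1 and 18.5 in Lv5NC and 17.3 and 19.0 in Lv3NC (0.90 ± 0.09, adjusted p = 0.0037). The control virus libraries were close to each other and so were the Blank libraries. ENPP1, an ectoenzyme that makes pyrophosphate from ATP, was at 52.6 and 40.3 FPKM in Blank, 102 and 73.7 in Lv5NC and 76.1 and 96.4 in Lv3NC (0.89 ± 0.16, adjusted p = 0.0333). GLDN, or gliomedin, a cell adhesion protein, was at 5.89 and 4.28 FPKM in Blank and between 8.48 and 12.8 in the control viruses (0.87 ± 0.15, adjusted p = 0.0315), and LRRC3B, a membrane protein with leucine-rich repeats, at 3.65 and 2.17 FPKM in Blank and between 5.90 and 6.75 in the control viruses (0.92 ± 0.13, adjusted p = 0.0214). In ENPP1 Lv5NC-1 and Lv3NC-2 were highest, and in all 4 genes the control virus libraries lay above both Blank libraries.

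Further large falls were those of APLN, RRAD, ABCC9, KCNJ8 and GPM6B. APLN, or apelin, a peptide of the vasculature, was at 4.07 and 13.8 FPKM in Blank, 0.99 and 1.12 in Lv5NC and 1.07 and 0.72 in Lv3NC (−2.14 ± 0.34, adjusted p = 0.0322). The Blank libraries were far apart, and the 4 control virus libraries were all near 1 FPKM. The difference was −1.36 against Blank-1 alone, where the gene still passed (adjusted p = 0.0146). RRAD, a small GTPase that dampens calcium channels, was at 6.59 and 8.11 FPKM in Blank, 0.81 and 1.21 in Lv5NC and 1.64 and 1.15 in Lv3NC (−1.93 ± 0.19, adjusted p = 0.0037). ABCC9, the regulatory subunit of ATP-sensitive potassium channels, was at 5.19 and 8.16 FPKM in Blank, 0.93 and 2.02 in Lv5NC and 1.17 and 0.70 in Lv3NC (−1.81 ± 0.26, adjusted p = 0.0221). KCNJ8, the pore subunit of that channel, was at 6.85 and 6.41 FPKM in Blank, 1.21 and 2.34 in Lv5NC and 1.42 and 0.82 in Lv3NC (−1.68 ± 0.27, adjusted p = 0.0321). In both channel genes Lv5NC-2 was the highest control virus library and Lv3NC-2 the lowest, and both groups stayed apart. GPM6B, a membrane glycoprotein, was at 2.32 and 1.96 FPKM in Blank and between 0.10 and 0.54 in the control viruses (−1.32 ± 0.15, adjusted p = 0.00525). It reached 1 FPKM in no library outside Blank, so it passed the filter only through the group where it is high.

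ABCC9 and KCNJ8 are also markers of pericytes, the mural cells of capillaries. On a list of 16 mural markers chosen after these values were seen, 10 genes were tested, 5 above and 5 below 0 (median −0.04), and 3 fell, the third being NDUFA4L2 at 1.37 and 4.18 FPKM in Blank and between 0.26 and 0.75 in the control viruses (−1.28 ± 0.26, adjusted p = 0.0494). The summed level was 172 and 149 FPKM in Blank and 128 to 148 with the control viruses. The defining marker RGS5 reached no more than 0.09 and MCAM no more than 0.04 in any library, and PDGFRB (−0.38 ± 0.15, adjusted p = 0.226) and CSPG4 (0.35 ± 0.12, adjusted p = 0.174) did not pass. The part of such cells in these falls was not tested.

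Contractile genes of smooth muscle lay below Blank in all 19 tested members (median −0.33), 8 of them with no overlap, and 0 passed. An unadjusted p under 0.05 was found in 9, against 18.3% of all genes, of which 15.3% lay below Blank without overlap. CNN1, or calponin, which binds actin, was at 19.7 and 46.2 FPKM in Blank, 7.60 and 13.4 in Lv5NC and 12.8 and 5.80 in Lv3NC (−1.59 ± 0.40, adjusted p = 0.0969). LMOD1, which nucleates actin filaments, was at 12.1 and 25.1 FPKM in Blank, 6.11 and 8.99 in Lv5NC and 7.44 and 5.32 in Lv3NC (−1.23 ± 0.29, adjusted p = 0.0754). MYLK, the kinase of the myosin light chain, was at 304 and 553 FPKM in Blank and between 208 and 273 in the control viruses (−0.82 ± 0.22, adjusted p = 0.105). In each the Blank-2 level was far above Blank-1. Against Blank-1 alone the median was −0.13, with 14 members below and 5 above 0, and against Blank-2 alone it was −0.66 with 11 members called lower, as were 259 of all 11340 genes.

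**Figure D4:**
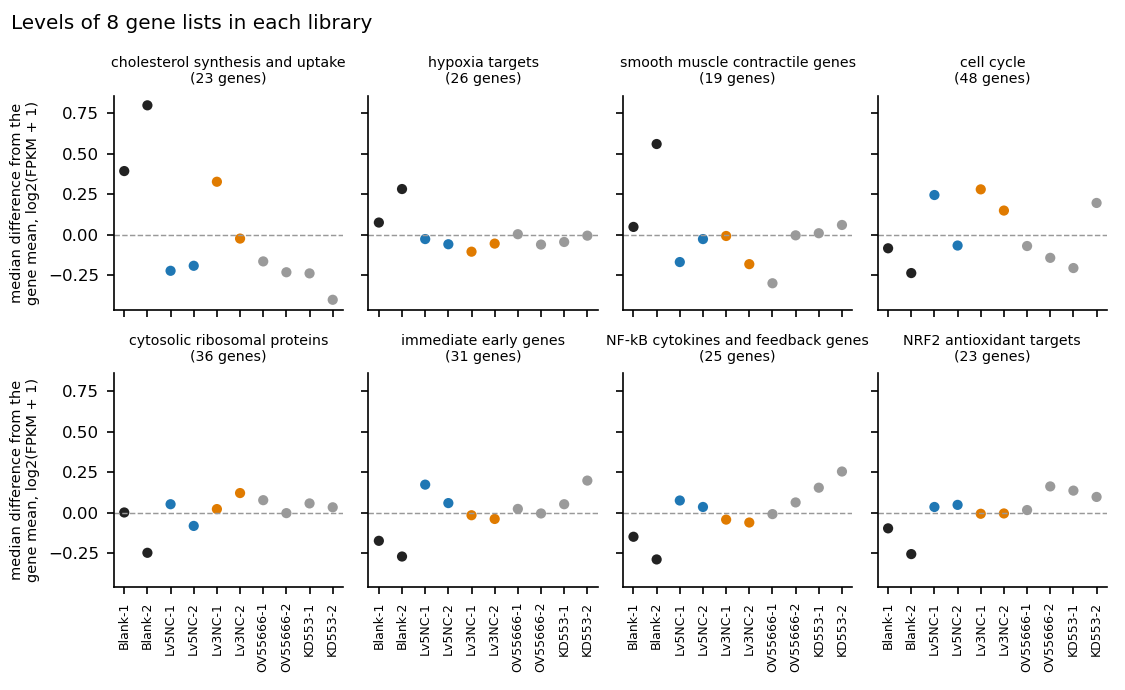
Level of 8 gene lists in each of the 10 libraries, as the median over the tested members of the difference from the gene's mean over the 10 libraries, in log2(FPKM + 1); Blank is black, Lv5NC blue, Lv3NC orange, and OV55666 and KD553 are grey, where the KD553 numbers only tell its columns apart. Blank-2 takes an end position in all 8 panels, at 0.80 for cholesterol synthesis and at −0.25 for ribosomal proteins.

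Cholesterol synthesis genes lay lower with both control viruses. These enzymes and the LDL receptor are driven together by the factor SREBF2 when cell sterols are low. All 23 tested members were below 0 (median −0.57, against 0.0027 over all genes tested), 17 had all 4 control virus libraries below both Blank libraries, and 22 had an unadjusted p under 0.05, against 15.3% and 18.3% of all genes. With each virus set separately against the same Blank libraries, 7 members were called for Lv5NC and 0 for Lv3NC. Of all genes tested 0.291% and 0.132% were called there. In the pooled fit 1 member was called after adjustment. TM7SF2, a sterol reductase of the late pathway, was at 3.54 and 4.80 FPKM in Blank, 0.48 and 1.09 in Lv5NC and 1.93 and 0.95 in Lv3NC (−1.32 ± 0.23, adjusted p = 0.0322). ACAT2, which makes the first intermediate, was at 26.8 and 34.0 FPKM in Blank, 16.4 and 14.96 in Lv5NC and 21.5 and 21.3 in Lv3NC and did not pass (−0.69 ± 0.15, adjusted p = 0.0551). SREBF2 itself was at 31.4 and 37.2 FPKM in Blank, 21.98 and 23.3 in Lv5NC and 29.0 and 23.5 in Lv3NC (−0.48 ± 0.11, adjusted p = 0.0577), and HSD17B7, of the late pathway, at 2.06 and 2.44 FPKM in Blank and between 1.00 and 1.51 in the control viruses (−0.55 ± 0.12, adjusted p = 0.0508). In all these genes both Blank libraries were highest, Blank-2 above Blank-1. The list median was −0.77 for Lv5NC and −0.39 for Lv3NC against the same Blank libraries, and −0.47 for the pooled viruses against Blank-1 alone, where all 23 members were again below 0. The library Lv3NC-1 was close to Blank-1 on this list, at 0.33 against 0.39 relative to the mean of each gene over the 10 libraries.

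Fatty acid and milk genes moved less uniformly. Of 21 tested genes of milk fat synthesis 17 lay below 0 (median −0.29) and 1 fell: ACSS2, which makes acetyl-CoA from acetate, was at 3.31 and 3.59 FPKM in Blank, 2.14 and 2.25 in Lv5NC and 2.38 and 1.90 in Lv3NC (−0.49 ± 0.09, adjusted p = 0.0333). FABP3, a fatty acid carrier, was at 5.55 and 10.3 FPKM in Blank, 1.46 and 1.18 in Lv5NC and 4.68 and 1.98 in Lv3NC and did not pass (−1.48 ± 0.37, adjusted p = 0.0931). CD36, a fatty acid importer, went the other way, at 0.84 and 0.19 FPKM in Blank, 2.07 and 2.61 in Lv5NC and 1.37 and 1.66 in Lv3NC (0.97 ± 0.23, adjusted p = 0.0734). Only 5 milk protein and secretion genes were measurable and 0 passed, with 2 at an unadjusted p under 0.05 (18.3% of all genes). The fat globule protein MFGE8 was at 104 and 82.2 FPKM in Blank and between 97.1 and 114 in the control viruses (0.19 ± 0.10, adjusted p = 0.357). CDO1, cysteine dioxygenase, which degrades cysteine, had a tight fall outside any list, at 19.1 and 23.6 FPKM in Blank, 6.49 and 7.75 in Lv5NC and 8.13 and 8.48 in Lv3NC (−1.36 ± 0.14, adjusted p = 0.0037).

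In the list of prolactin, growth hormone and STAT5 signalling, which also holds insulin-like growth factor genes, 1 rose and 2 fell of 21 tested, with a median of −0.0002. For all genes these shares were 0.564% and 0.952%. IGFBP3, the main binding protein of insulin-like growth factors, was at 5.21 and 3.25 FPKM in Blank, 0.71 and 1.72 in Lv5NC and 0.67 and 0.54 in Lv3NC (−1.47 ± 0.27, adjusted p = 0.038). IGF1R, their receptor, was at 11.2 and 13.8 FPKM in Blank, 9.19 and 9.16 in Lv5NC and 8.71 and 8.86 in Lv3NC (−0.43 ± 0.08, adjusted p = 0.0389). ESR1, the estrogen receptor, was at 7.26 and 5.15 FPKM in Blank, 9.56 and 9.08 in Lv5NC and 8.85 and 9.23 in Lv3NC (0.51 ± 0.10, adjusted p = 0.0389). The control virus libraries lay within 1 FPKM of each other in IGF1R and ESR1, on opposite sides of Blank. The growth hormone receptor GHR was at 18.0 and 15.5 FPKM in Blank and between 19.9 and 21.7 in the control viruses and did not pass (0.28 ± 0.08, adjusted p = 0.0969).

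The genes of virus sensing gave few calls, as did all genes tested, of which 1.52% were called. Of 29 interferon-stimulated genes 1 was called, 13 lay above and 16 below 0, and the median was −0.03. IRF1, a transcription factor induced by interferon, was at 1.27 and 0.98 FPKM in Blank, 2.01 and 2.08 in Lv5NC and 2.07 and 2.33 in Lv3NC (0.56 ± 0.09, adjusted p = 0.0266), low in all cells but above Blank in all 4 control virus libraries. HERC6, a ubiquitin ligase of the interferon response, was at 2.5 and 1.88 FPKM in Blank and between 3.53 and 4.83 in the control viruses and did not pass (0.66 ± 0.15, adjusted p = 0.059). IFIT2, which binds foreign RNA, was at 1.39 and 1.37 FPKM in Blank and between 0.93 and 1.04 in the control viruses (−0.27 ± 0.08, adjusted p = 0.13), on the other side of Blank. The 3 genes thus took both directions. The list did so too: against Blank-1 alone 25 of the 29 were below 0, as were 7093 of all 11340 genes, and against Blank-2 alone 18 were above 0 and 4 called higher, as were 6812 and 440 of all genes. Among 19 genes of nucleic acid sensing limma called 0 (median −0.01, and 2 with an unadjusted p under 0.05, against 18.3% of all genes). IKBKE, a kinase of that route, was at 4.0 and 2.45 FPKM in Blank and between 4.41 and 5.91 in the control viruses (95% interval of the difference 0.20 to 0.86, adjusted p = 0.105). Among 17 factors that restrict or assist retroviruses limma called 0 (median 0.02, and 5 at that level). ZC3HAV1, which degrades viral RNA, was at 17.6 and 15.1 FPKM in Blank and between 17.7 and 19.6 in the control viruses (95% interval 0.02 to 0.33), and SERINC5, which virions pick up from the membrane, at 6.54 and 7.12 FPKM in Blank and between 5.08 and 6.13 in the control viruses (95% interval −0.45 to −0.04). Over all genes tested, the interval of the median gene reached 0.21 to either side.

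Genes of DNA damage and cell death gave a single call, where 1.52% of all genes tested were called. Of 24 p53 targets 1 passed: GADD45A, a stress sensor of growth arrest, fell, at 17.9 and 27.1 FPKM in Blank, 12.1 and 8.66 in Lv5NC and 11.4 and 11.7 in Lv3NC (−0.96 ± 0.17, adjusted p = 0.0342). MDM2, the ligase that p53 induces against itself, was at 12.2 and 9.77 FPKM in Blank and between 13.0 and 14.3 in the control viruses and did not pass (0.28 ± 0.09, adjusted p = 0.146). Of 20 genes of apoptosis and survival limma called 0, and 5 had an unadjusted p under 0.05, against 18.3% of all genes. BMF, a promoter of apoptosis, was at 4.04 and 3.57 FPKM in Blank, 0.99 and 1.83 in Lv5NC and 1.47 and 0.93 in Lv3NC (−1.08 ± 0.24, adjusted p = 0.0639), with no overlap, and PMAIP1, another promoter, at 6.65 and 4.35 FPKM in Blank and between 6.79 and 9.18 in the control viruses (0.48 ± 0.16, adjusted p = 0.168).

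Cell cycle genes lay higher as a list without a call. Of 48 tested members 46 were above 0 (median 0.33), 24 lay above Blank without overlap, against 10.8% of all genes, and 26 had an unadjusted p under 0.05, against 18.3%. CCND1, the cyclin that starts the cycle, was at 17.5 and 10.8 FPKM in Blank, 34.2 and 22.01 in Lv5NC and 25.9 and 33.5 in Lv3NC (0.99 ± 0.26, adjusted p = 0.0979). CDK6, its kinase partner, was at 6.55 and 6.35 FPKM in Blank, 7.73 and 8.24 in Lv5NC and 8.14 and 8.17 in Lv3NC (0.28 ± 0.06, adjusted p = 0.0508), and KIF23, a motor of cell division, at 4.43 and 4.24 FPKM in Blank and between 5.69 and 7.06 in the control viruses (0.44 ± 0.12, adjusted p = 0.0971). Lv5NC-2 was nearest to Blank, as its list level was −0.07, against −0.08 and −0.24 in Blank and 0.15 to 0.28 in the other control virus libraries. Outside the comparison the level was −0.07 and −0.14 in OV55666 and −0.21 and 0.20 in KD553, so a higher level was not shared by all virus libraries. Against Blank-1 alone the median was 0.25. EZH2, a histone methyltransferase of dividing cells that is on no list, rose, at 12.4 and 11.2 FPKM in Blank and between 15.04 and 18.2 in the control viruses (0.49 ± 0.10, adjusted p = 0.0448); it was singled out after its values were seen.

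Lists of protein synthesis and energy supply depended on Blank-2. All 36 ribosomal protein genes were above 0 with a median of 0.15, and against Blank-1 alone 25 were above and 11 below with a median of 0.02. RPL13 was at 528 and 475 FPKM in Blank and between 536 and 633 in the control viruses (0.26 ± 0.09, adjusted p = 0.183), and copies of ribosomal genes elsewhere in the genome may share its reads. Oxidative phosphorylation had 16 of 18 above 0 (median 0.08), and 9 of 18 against Blank-1 alone (median −0.0026). Neither list held a call, with 4 and 3 genes at an unadjusted p under 0.05 (18.3% of all genes). Hypoxia targets lay below 0 in 22 of 26 (median −0.21, and −0.14 against Blank-1 alone), 13 without overlap (15.3% of all genes), 14 at an unadjusted p under 0.05 (18.3% of all genes), and 0 called. ADM, or adrenomedullin, was at 26.6 and 48.7 FPKM in Blank, 17.6 and 17.8 in Lv5NC and 19.1 and 14.6 in Lv3NC (−1.03 ± 0.22, adjusted p = 0.057), with Blank-2 far above the rest.

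Stress of the endoplasmic reticulum gave 1 rise of 25 (median 0.07): SDF2L1, a chaperone partner, was at 23.5 and 21.4 FPKM in Blank, 30.1 and 27.2 in Lv5NC and 28.9 and 28.6 in Lv3NC (0.34 ± 0.07, adjusted p = 0.0459). DDIT3, the factor of prolonged stress, was at 15.9 and 16.1 FPKM in Blank and between 11.9 and 13.7 in the control viruses and did not pass (−0.30 ± 0.08, adjusted p = 0.0992). Among the 21 genes of the amino acid response, the 21 heat shock genes, the 25 of autophagy and lysosome and the 11 of cholesterol export limma called 0, with 7, 4, 2 and 2 at an unadjusted p under 0.05 (18.3% of all genes). Their medians were −0.19, 0.10, −0.11 and −0.06.

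The viruses were also set against Blank separately in a fit with 5 groups. Lv5NC gave 33 calls (0.291%), 15 higher (0.132%) and 18 lower (0.159%). Lv3NC gave 15 (0.132%), 3 higher (0.0265%) and 12 lower (0.106%). Leaving out any single library of the groups compared took the first to between 0 and 288 and the second to between 0 and 292, in each case highest without Blank-1. The viruses share the Blank libraries, so the values stand side by side only as values. EREG differed from Blank by 1.37 ± 0.12 in Lv5NC and by 1.01 ± 0.12 in Lv3NC. For SPON1 the differences were −2.75 ± 0.57 and −2.81 ± 0.57, and for BMP2 2.03 ± 0.31 and 1.38 ± 0.31.

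Set directly against each other, Lv5NC and Lv3NC differed in 0 genes by limma, and 303 had an unadjusted p under 0.05 (2.67%). Among the 172 genes called for the pooled viruses 5 had an unadjusted p under 0.05 between the viruses, and the median size of that difference was 0.08. The pooled fit counts a difference between the viruses as spread, so its calls favour genes in which they agree. These values are therefore no separate sign of agreement. For the median gene the 95% interval of the difference extended 0.25 in each direction, so smaller differences between the viruses were not resolved. BMP2 differed by 0.66 ± 0.31 and TBX3 by 0.41 ± 0.15, Lv5NC minus Lv3NC. Within the 4 libraries, Lv5NC-1 was highest in 29 of the 64 genes that rose (45.3%, against 23.5% of all genes). Among the 108 that fell, Lv5NC-2 was highest, and so nearest to Blank, in 42 (38.9%, against 21.6% of all genes). Lv3NC-1 was highest in 34 of them (31.5%), near its share of all genes (27%).

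**Figure D5:**
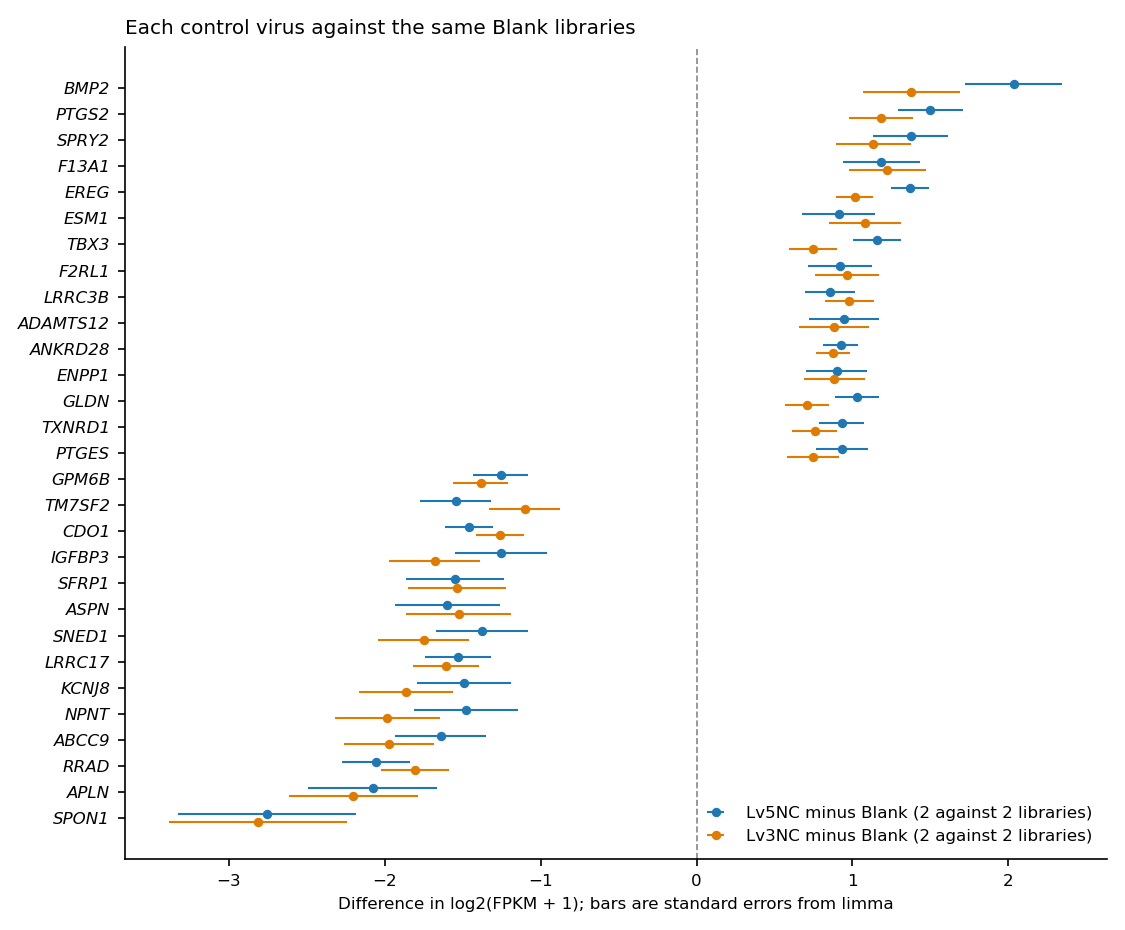
Difference from Blank in log2(FPKM + 1) of Lv5NC (blue) and Lv3NC (orange) for 29 of the 30 genes with the largest called rises and falls, with standard errors from limma as bars, 2 against 2 libraries each. Both viruses lie on the same side of 0 for each gene, which the choice of genes fixes. The bars of most genes overlap, which that choice favours. The largest gap among the rises is that of BMP2, 2.03 against 1.38.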

How the data were processed

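RNA sequencing of total RNA from 10 libraries of goat mammary gland cells was used, 2 for each of 5 groups taken from the sample titles. The authors deposited FPKM values per gene, per the file headers. The aligner, counting tool, genome build and read depth are not given in the sources used. Of the gene identifiers 16658 matched the RefSeq table of assembly ARS1.2, used for symbols only, and 539 are BGI_novel identifiers. The titles and descriptions of the KD553 samples carry different numbers, so those columns were used without a number.

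From these values, log2(FPKM + 1) was computed for the 11340 genes with at least 1 FPKM in at least 2 libraries, with no further scaling. limma 3.58.1 in R 4.3.3, with trend and robust options, was fitted to all 10 libraries, with Lv5NC and Lv3NC as 1 group (6 residual degrees of freedom) or as 2 (5 residual degrees of freedom). Benjamini-Hochberg adjustment ran over all genes tested, with calls under 0.05. All adjusted p-values in the text come from limma, and errors are its standard errors for 4 against 2 libraries, or 2 against 2 for a single virus. The fits were tested on simulated data with 200 changed genes.

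The genes named were the 15 largest rises and the 15 largest falls among called genes with a symbol and without overlap between groups, and up to 4 members with the smallest p from each of 28 pathway lists. Some genes that the rule takes in are not reported here. The comparison, the lists and 6 lists of cell type markers were chosen with earlier results of these data known. The lists of mural markers and of gene families, and 1 replicate block with exchanged numbers, were chosen after the values were seen. Lists were described by counts and medians and not tested. Alternatives were other pseudocounts (0.1 and 0.5), filters, scalings, sample sets, a replicate block and leaving out each library. No sequences are printed, as none were used here. Figures were drawn with matplotlib 3.10.9 in Python 3.11.15.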

Additional observations from a re-analysis of the deposited data

Results flagged for a closer look

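Among the 130 genes chosen by the naming rule, 5 had 1 control virus library whose gap to the nearest other was unusually large for a group of 4. Chance flags about 1 in 20 such groups, and 5 of 130 is fewer than that. FOSL1, an AP-1 subunit, was at 39.4 FPKM in Lv5NC-1 against 29.3 to 30.0 in the other 3. RPS16, a ribosomal protein, was at 614 in Lv5NC-2 against 716 to 731. The other 3 genes stood out in Lv3NC-2. TRAF3, an adaptor of cytokine and virus sensing, was there at 5.70 against 6.24 to 6.33, and PDK1, a kinase that holds back pyruvate use, at 4.58 against 3.82 to 3.89. The growth hormone receptor gene GHR was at 21.7 against 19.9 to 20.1. None of these 5 genes was called against Blank (limma; all 5 belong to the named genes that did not pass).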

How the results depend on the processing

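Of the 30 genes with the largest called changes, 18 had at least 1 FPKM in all 10 libraries, and 16 stayed called where that was required. The 30 genes were chosen without overlap between groups, so their direction could not turn when a library was left out. How many were still called ranged from 1 without Blank-2 to 30 of 30 under quantile normalization, median centring, limma without trend and robust options and with all 8 virus libraries as 1 group. For the pooled viruses the number of calls (172) became 106 with only the Blank, Lv5NC and Lv3NC libraries and 473 with all 8 virus libraries as 1 group, and leaving out 1 library gave 2 to 699. Other settings kept it between 115 and 201, with 151 and 157 of the 172 genes shared under quantile normalization and median centring. These scalings moved the share of higher calls from 37.2% to 47.4% (92 higher and 102 lower) and to 49% (95 and 99), and no filter on low values moved it to 21.2% (36 and 134).

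For Lv5NC (33 calls) the count was 18 with a pseudocount of 0.1, 12 with 0.5, 13 without a filter, 8 with only these libraries and 2 with the replicate block; leaving out 1 library gave 0 to 288. For Lv3NC (15 calls) it was 6 with a pseudocount of 0.1, 7 with 0.5, 7 without a filter, 7 with at least 1 FPKM in all 10 libraries and 6 with the replicate block; leaving out 1 library gave 0 to 292. Where a group keeps a single library, its spread is assumed to be that of the other groups. Lv5NC against Lv3NC gave 0 calls in each setting except 1 without a filter. The cause of these shifts was not tested.

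The correlation across genes of the deviations of same-numbered libraries was −0.08 for Blank and Lv5NC, 0.05 for Blank and Lv3NC, −0.04 for Blank and OV55666, −0.46 for Lv5NC and Lv3NC, −0.38 for Lv3NC and OV55666 and 0.5 for Lv5NC and OV55666. Lv5NC and OV55666 thus deviated together, and Lv3NC deviated in the opposite sense to both, while Blank followed none of them. Lv5NC-1 correlated more closely with Lv3NC-2 and OV55666-1 (0.996 each) than with Lv5NC-2 (0.992). Lv5NC-2 correlated at 0.995 with Lv3NC-1 and at 0.997 with OV55666-2. What such libraries share is not labelled, and the numbers were not taken to pair the samples. The replicate block, fitted without KD553, gave 121 calls for the pooled viruses, 96 of them among the 172. With the Lv3NC numbers exchanged in the block, Lv5NC against Lv3NC gave 0 calls, as with the numbers as labelled; this exchange was chosen after seeing the data.

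FPKM keeps no read number, so counting error is unknown, and 77 of the 172 called genes (44.8%) had a mean under 5 FPKM.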

Other observations

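Outside the pathway lists, 140 of the 172 called genes remain, and several belong to small families. The families below were picked after their called members had been seen, so their counts are descriptions. Of 8 core proteins that carry heparan sulfate, which holds growth factors at the cell surface, 3 fell. SDC2, a syndecan, was at 9.29 and 8.84 FPKM in Blank, 4.59 and 5.68 in Lv5NC and 5.30 and 5.50 in Lv3NC (−0.69 ± 0.09, adjusted p = 0.0136). GPC6, a glypican, was at 3.15 and 1.98 FPKM in Blank and between 0.21 and 0.73 in the control viruses (−1.27 ± 0.19, adjusted p = 0.0221), and GPC2 at 1.38 and 1.12 FPKM in Blank and between 0.51 and 0.71 in the control viruses (−0.48 ± 0.10, adjusted p = 0.0488). Both glypicans reached 1 FPKM only in Blank, so they passed the filter through the group where they are high. The abundant members SDC1, at 155 and 111 FPKM in Blank and between 138 and 159 in the control viruses, and GPC1, at 214 and 194 FPKM in Blank and between 202 and 232 in the control viruses, did not pass. SDC4 lay above both Blank libraries in all 4 control virus libraries without a call (0.455 ± 0.141, adjusted p = 0.133). The median over the 8 genes was 0.04. Of 12 enzymes of chondroitin and dermatan sulfate 2 rose: DSE, an epimerase, was at 24.8 and 23.8 FPKM in Blank, 32.1 and 33.4 in Lv5NC and 32.5 and 32.6 in Lv3NC (0.41 ± 0.07, adjusted p = 0.0266), and CHSY1, a synthase, at 15.9 and 15.1 FPKM in Blank and between 18.7 and 20.3 in the control viruses (0.32 ± 0.07, adjusted p = 0.0485).

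Of 3 tested RGK GTPases, which dampen calcium channels, RRAD and REM1 fell, REM1 being at 11.0 and 12.3 FPKM in Blank, 8.01 and 7.64 in Lv5NC and 6.97 and 7.11 in Lv3NC (−0.58 ± 0.08, adjusted p = 0.0192), and GEM was at 69.7 and 55.4 FPKM in Blank and between 74.4 and 107 in the control viruses on the other side of Blank without a call (0.48 ± 0.15, adjusted p = 0.129). CACNA1C, a pore subunit of such channels, fell as well, at 5.50 and 5.88 FPKM in Blank and between 3.17 and 3.70 in the control viruses (−0.56 ± 0.09, adjusted p = 0.0223). Both MARCKS genes, whose proteins bind actin and membrane lipids, fell: MARCKS was at 16.1 and 14.7 FPKM in Blank, 5.62 and 8.08 in Lv5NC and 6.72 and 4.93 in Lv3NC (−1.18 ± 0.20, adjusted p = 0.0322) and MARCKSL1 at 15.2 and 16.4 FPKM in Blank and between 10.7 and 12.4 in the control viruses (−0.47 ± 0.10, adjusted p = 0.0447). Among receptors, 1 of 3 tested genes of FGF receptors and 1 of 2 of the ROR receptors for Wnt ligands fell: FGFR2 was at 7.13 and 6.57 FPKM in Blank, 2.74 and 3.70 in Lv5NC and 3.80 and 2.47 in Lv3NC (−0.92 ± 0.17, adjusted p = 0.0378) and ROR2 at 6.86 and 6.72 FPKM in Blank, 4.07 and 4.07 in Lv5NC and 3.38 and 3.80 in Lv3NC (−0.69 ± 0.09, adjusted p = 0.0101). FGFR1 was at 24.9 and 21.6 FPKM in Blank and between 16.01 and 27.7 in the control viruses and did not pass (−0.10 ± 0.20, adjusted p = 0.83). Close relatives could take opposite directions. RASSF1 fell, at 11.6 and 12.4 FPKM in Blank and between 8.71 and 9.14 in the control viruses (−0.40 ± 0.06, adjusted p = 0.0239), and RASSF3 rose, at 8.14 and 7.41 FPKM in Blank and between 9.84 and 10.8 in the control viruses (0.38 ± 0.07, adjusted p = 0.0321). GPX7 fell, at 24.2 and 28.7 FPKM in Blank and between 15.9 and 20.5 in the control viruses (−0.51 ± 0.10, adjusted p = 0.0386), while GPX1 rose.

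A few genes of sensing and defence outside the lists rose. NLRP3, the sensor of an inflammasome, was at 5.04 and 3.43 FPKM in Blank, 9.12 and 7.37 in Lv5NC and 6.73 and 6.81 in Lv3NC (0.71 ± 0.14, adjusted p = 0.038). PML, which organizes nuclear bodies, was at 14.5 and 10.9 FPKM in Blank and between 17.3 and 20.4 in the control viruses (0.54 ± 0.11, adjusted p = 0.0383), and RNF213, a large ubiquitin ligase, at 3.81 and 2.84 FPKM in Blank and between 4.69 and 5.19 in the control viruses (0.48 ± 0.09, adjusted p = 0.0357). TRPA1, an ion channel that senses irritants, was at 1.28 and 0.69 FPKM in Blank and between 2.15 and 2.92 in the control viruses (0.82 ± 0.16, adjusted p = 0.038). LOC108634923, annotated in the deposited table as the same channel, was at 1.08 and 0.59 FPKM in Blank and between 1.53 and 2.23 in the control viruses (0.71 ± 0.15, adjusted p = 0.0448), and reads may be shared between them. All these genes were singled out after their values were seen.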
